A study of Bos taurus with 3 samples.

Results

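Cells of the bovine rumen epithelium were examined that held many transcripts of the replicative helicase and none of a pair of later cell cycle genes. A cell belonged to the set if it had at least 6 UMIs summed over *MCM2*, *MCM3*, *MCM4*, *MCM5* and *MCM6* and 0 UMIs of *MKI67* plus *TOP2A*. A UMI is a molecular tag that counts 1 captured transcript. The members were thus chosen by the UMI counts of these 7 genes. Of the 20728 cells measured, 779 (3.76%) met this rule, and they are called MCM-rich cells here. The tissue was taken from the ventral sac of the rumen in 3 adult lactating Holstein dairy cows, all under 1 condition, with 1 droplet library per cow. It had been minced, treated with EDTA and broken up with trypsin and a mix of enzymes. The authors had already removed cells that were not epithelial. The cow of each cell was read from the suffix of its barcode.

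MCM2 to MCM7 form the ring-shaped helicase that is loaded onto replication origins in G1 by the origin recognition complex, CDC6 and CDT1, and that unwinds DNA once CDC45 and the GINS complex have joined it. E2F factors switch on the genes for this machinery at the G1/S border, whereas *MKI67*, which encodes a coat protein of mitotic chromosomes, and *TOP2A*, which encodes the topoisomerase that untangles sister chromatids, accumulate later, towards mitosis. In the rumen, a stratified epithelium, cells divide in the layers near the basement membrane and then differentiate as they move towards the lumen.

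The MCM-rich cells were unevenly spread over the cows. They numbered 42 in cow 1 (1.25% of its 3369 cells), 154 in cow 2 (2.08% of 7401) and 583 in cow 3 (5.85% of 9958), a mean of 3.06% ± 2.46 (SD, n = 3). Cow 3 thus gave 74.8% of them, although its cells were the shallowest, with a median of 9747 UMIs against 10342 in cow 1 and 12051 in cow 2. The higher share in cow 3 was also seen with a minimum of 4 MCM UMIs (1.99%, 2.99% and 8.39% in cows 1, 2 and 3), with a minimum of 10 (0.653%, 1.04% and 3.17%), and with a minimum that scaled with the depth of the cell (0.831%, 1.13% and 5.28%). After each cell was thinned to 8000 UMIs and shallower cells were left out, the rule was met by 0.776%, 0.881% and 5.40% of cells, a setting chosen after the data were seen. With 1 library per cow, a difference between cows and one between libraries cannot be told apart.

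**Figure D1:**
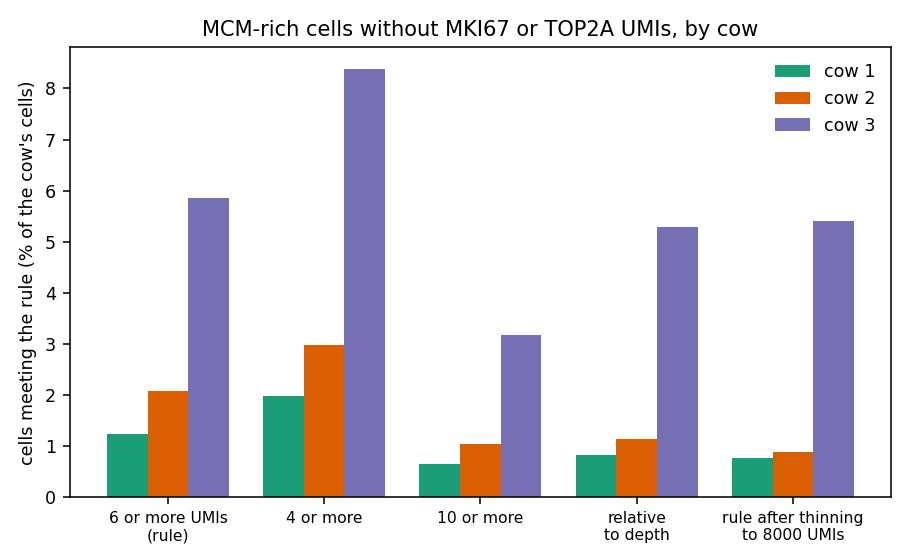
Share of each cow's cells (percent, bars from 0) that met the rule at 5 settings, with 1 bar per cow. Cow 3 was highest at each setting, with 5.85% under the rule itself against 1.25% and 2.08%.

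A minimum of 6 UMIs favours deep cells. The median was 15068 UMIs and 2645 genes in the MCM-rich cells, against 9408 UMIs and 1922 genes in the 12319 cells with 0 UMIs of all 7 genes, which served as the main comparison and are called MCM-negative cells. By cow, the MCM-rich medians were 18602.5, 20135.5 and 13922 UMIs and the MCM-negative medians 9017.5, 11152 and 8413. Thinned to 8000 UMIs, the MCM-rich cells still showed slightly more genes in each cow (1797.5, 1695.5 and 1847 against 1738, 1629 and 1760). The authors had removed cells with more than 4000 genes, and 4.24% of the MCM-rich cells had more than 3500, against 0.747% of the MCM-negative cells. The median mitochondrial share of UMIs was 23.1%, 12.04% and 13.1% in the MCM-rich cells and 16.3%, 10.7% and 12.1% in the MCM-negative cells of cows 1, 2 and 3. Only 3 MCM-rich cells had a barcode that another library shared, and 35 barcodes in all occurred in more than 1 library. Results are therefore also given, where it mattered, against cells of the same cow matched one by one for total UMIs. The matched MCM-negative medians were 18601.5, 20138 and 13859, and those of the third comparison set described below 18576.5, 19748 and 13924. The match to MCM-rich cells with *MKI67* or *TOP2A* left a gap in cow 3, where nearly all cells of both sets were used (13922 against 15385), so that no depth-matched value is given for that comparison.

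The rule itself fixed the levels of 7 genes, so these are a description. Summed over the cells of a cow, *MCM5* stood at 1.18, 1.57 and 2.15 UMIs per 10,000 in cows 1, 2 and 3, *MCM3* at 1.59, 0.929 and 1.68, and *MCM6* was the lowest of the 5 at 0.576, 0.544 and 0.751. The MCM sum had a median of 10 UMIs per cell and reached 33. At the edge of the rule, the 104 cells with exactly 6 MCM UMIs had 1.46 *PCNA*, 0.504 *UHRF1* and 0.196 *RRM2* UMIs per 10,000, and the 144 excluded cells with 5 had 1.16, 0.246 and 0.107. Cow 3 held most of these cells, and by cow the order varied. *PCNA* stood at 0.957, 0.633 and 1.90 in the cells with 6 and at 0.970, 0.804 and 1.33 in those with 5, so that only cow 3 had the higher *PCNA* level at 6.

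Among the markers of the set, *PCNA* and *UHRF1* were not used by the rule. *PCNA* encodes the sliding clamp of the replication fork, and *UHRF1* a protein that guides DNA methylation onto new strands. The rule chose both sets on the MCM genes. The direction of genes expressed with these, both markers included, was therefore close to given, and the tests below give no separate support. *PCNA* stood at 1.79, 2.03 and 3.53 UMIs per 10,000 in the MCM-rich cells of cows 1, 2 and 3 and at 0.242, 0.339 and 0.275 in the MCM-negative cells. *UHRF1* stood at 0.819, 1.00 and 1.54 against 0.0137, 0.0110 and 0.0134. Both were higher in each cow with no overlap between the sets. The log2 fold change was 3.07 ± 0.14 (SE) for *PCNA* (edgeR adjusted p = 3.2e-14) and 6.54 ± 0.19 for *UHRF1* (edgeR adjusted p = 3.8e-17). At least 1 UMI of *PCNA* was found in 88.1%, 87.7% and 92.8% of the MCM-rich cells and in 20.6%, 31.8% and 21.0% of the MCM-negative cells. After thinning to 8000 UMIs these *PCNA* shares were 67.5%, 66.9% and 83.2% against 15.5%, 21.9% and 17.9%. Within the set, 511 cells (65.6%) held UMIs of both *PCNA* and *UHRF1*, 202 of *PCNA* only, 16 of *UHRF1* only and 50 (6.42%) of neither, whereas both occurred together in 0.325% of the MCM-negative cells.

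**Figure D2:**
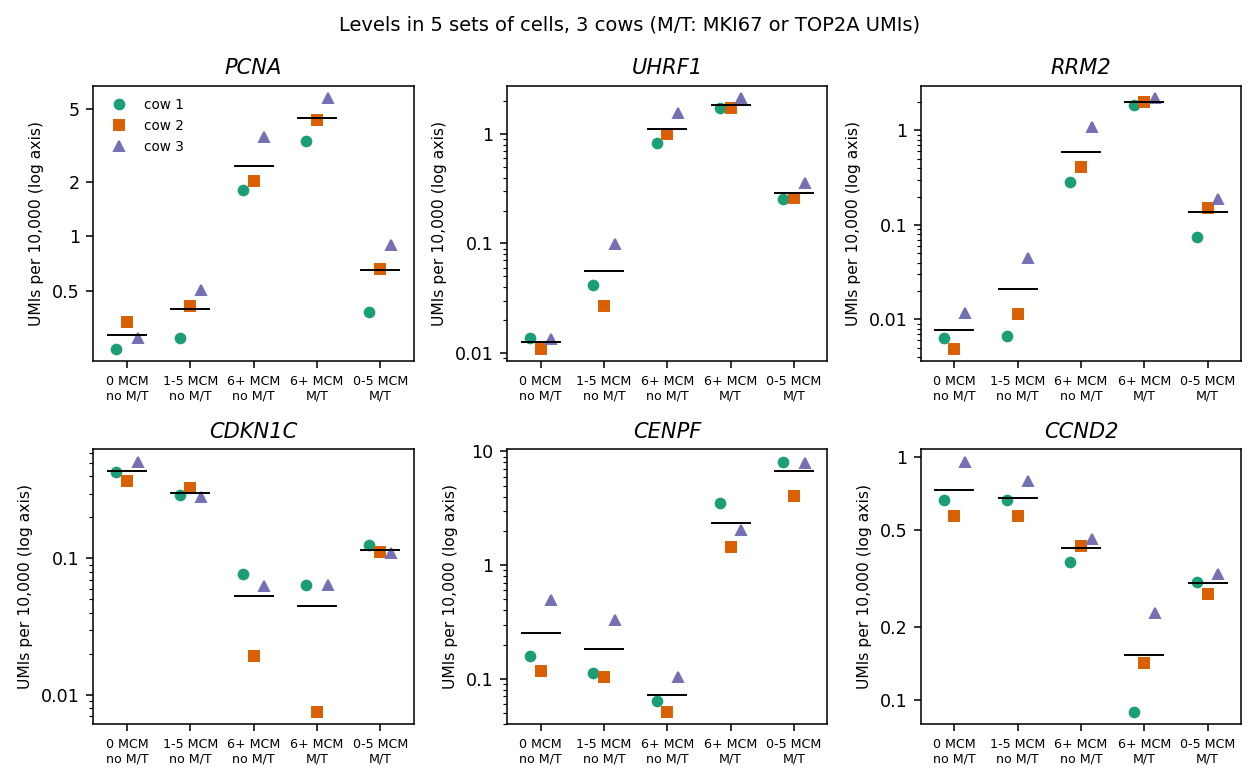
UMIs per 10,000 (log axis) of 6 genes in 5 sets of cells, named by their MCM2 to MCM6 UMIs and by the presence of MKI67 or TOP2A UMIs (M/T), with 1 symbol per cow and a line at the mean of 3 cows. *PCNA*, *UHRF1* and *RRM2* were highest in the MCM-rich cells with M/T, next highest in those without, and *CDKN1C* was lowest in both.

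The set had been given the working name of basal cells in early S phase, and markers of basal cells did not set it apart from other cells. Of 20 basal keratinocyte genes, all tested, 1 was higher, 3 were lower and 16 were not called, with a median log2 fold change of -0.22 where all genes had -0.035. Of all genes, 12.1% were higher and 10.4% lower, so these counts were near the background. The main basal keratins were abundant in both sets. *KRT5* was at 49.7, 50.1 and 77.4 UMIs per 10,000 in the MCM-rich and 35.9, 38.2 and 64.5 in the MCM-negative cells, and *KRT14* at 26.1, 32.5 and 56.3 against 18.2, 27.1 and 43.3. *KRT15*, the keratin of undifferentiated basal cells, went the other way at 40.5, 49.1 and 49.0 against 50.0, 58.0 and 56.6. None of these 3 keratin genes passed the fold minimum. The anchoring genes *DST* (log2 fold change -0.80 ± 0.15, edgeR adjusted p = 0.0002), *ITGA2* (-0.60 ± 0.15, edgeR adjusted p = 0.0030) and *LAMA3* (-0.54) were lower, and *IGFBP6* (0.58 ± 0.13, edgeR adjusted p = 0.00096) was higher. Against depth-matched cells, *IGFBP6* had 0.38, *ITGA2* -0.06 and *LAMA3* -0.39 and none of these was called. *IGFBP6* was not called without cow 1 either, and the count of lower basal genes was 5 without cow 1 or without cow 2 and 0 without the cow in the model. The cells are therefore named by their rule. Markers of other cell types were close to 0. Of 5 fibroblast genes in the table, 1 had a UMI in the MCM-rich cells (2 UMIs in all), and the range over cows of the summed level was 0.0423 to 0.0672 per 10,000 for 8 immune genes, 0.0192 to 0.0384 for 5 endothelial genes, 0.00363 to 0.0128 for 5 smooth muscle genes and 0 to 0.00967 for 2 melanocyte genes. The same sums in the MCM-negative cells were 0.0447 to 0.0607, 0.0208 to 0.0346, 0.00501 to 0.0211 and 0.00213 to 0.00553. The immune sum was above that of the MCM-negative cells in cow 1 (0.0640 against 0.0447) and cow 2 (0.0672 against 0.0607) and below it in cow 3 (0.0423 against 0.0544). Of the 61 immune UMIs in the MCM-rich cells, *CD68* had 43 and the leukocyte gene *PTPRC* 1. The fibroblast gene *COL1A1* had 0 UMIs in both sets.

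Across all genes, the MCM-rich cells were compared with the MCM-negative cells on UMI counts summed per cow and set, with the cow as a term in the model, because both sets of a cow came from the same library. Of 10820 genes tested, 1308 (12.1%) were higher and 1128 (10.4%) lower in the MCM-rich cells at an adjusted p under 0.05 and an absolute log2 fold change above 0.5. Against depth-matched cells these counts were 775 and 507, and without the cow in the model 491 and 155. With no filter on low counts they were 1110 and 1498, so that 42.6% of the calls were higher in place of 53.7%. The 7 genes of the rule were not tested. The other genes were read in the same cells that the rule had picked, so each test asks what went with many MCM transcripts, and bulk sums cannot tell a higher level per cell from more cells with the transcript.

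The replication genes were higher almost throughout. Over the 5 lists of origin licensing, fork, nucleotide, chromatin and checkpoint genes, 98 of 109 tested genes (89.9%) were higher and 0 lower, where 12.1% of all genes were higher. The MCM genes chose both sets, so the direction of genes expressed with them, such as *MCM7*, was close to given. The lists had also been drawn up with earlier results of these data known, so the count is a description. It was 90 of the 103 that could be tested against depth-matched cells, 80 without the cow in the model and 83 without cow 3, where 1 gene fewer was tested.

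Among the licensing and helicase genes, 26 of 29 were higher (median log2 fold change 1.97). *MCM7*, the helicase subunit outside the rule, stood at 1.61, 1.34 and 1.75 UMIs per 10,000 against 0.340, 0.220 and 0.263 (log2 fold change 2.55 ± 0.10, edgeR adjusted p = 3.4e-15). The loading factor *CDC6* was at 0.0512, 0.0929 and 0.184 against 0.00273, 0.00213 and 0.00207 (log2 fold change 5.74 ± 0.25, edgeR adjusted p = 1.5e-14). The largest origin subunit *ORC1* (5.03) was also among the largest changes. The loading factor *CDT1* (5.31) had 24 UMIs in the MCM-rich and 6 in the MCM-negative cells, too few for the depth-matched test. *GMNN*, whose product restrains CDT1, was at 0.704, 0.951 and 1.62 against 0.146, 0.206 and 0.290 (2.32 ± 0.10). *MCM10* (3.53), the GINS subunit *GINS2* (1.73), *CDC45* (1.89) and *CLSPN* (3.94), a mediator of the replication checkpoint, were higher as well. Among the origin subunits *ORC2* (0.09) and *ORC4* (-0.01) were not called, and neither was *MCM9* (0.03), a helicase used in repair.

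Of 28 polymerase, clamp and fork genes, 25 were higher (median 1.75). After *PCNA*, the flap nuclease *FEN1* (3.57), the DNA ligase *LIG1* (2.05), the polymerase subunits *POLE2* (4.38), *POLA2* (3.36) and *POLD1* (2.59) and the single-strand binding genes *RPA2* (1.76) and *RPA3* (1.72) rose. *POLE*, the catalytic subunit of the leading-strand polymerase, had 15 UMIs in the MCM-rich cells and 0 in the MCM-negative cells of all cows. Its level was 51.9-fold higher when the MCM-negative sum was set to a floor of 3 UMIs, with the cows pooled and the 15 UMIs taken as exact. The clamp loader gene *RFC1* was not called (0.24), although it was against depth-matched cells (0.55).

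Of 16 nucleotide supply genes, 14 were higher (median 1.18). *RRM2*, the regulated subunit of ribonucleotide reductase, stood at 0.282, 0.413 and 1.09 UMIs per 10,000 in cows 1, 2 and 3 against 0.00638, 0.00492 and 0.0117, so that cow 3 was the highest in both sets and the sets did not overlap (log2 fold change 6.44 ± 0.28, edgeR adjusted p = 2.3e-14). *RRM2* UMIs were found in 33.3%, 23.4% and 52.0% of the MCM-rich cells, and in 20.0%, 15.6% and 41.5% after thinning to 8000 UMIs. In the MCM-negative cells the *RRM2* share was 0.650%, 0.561% and 1.00%. Thymidylate kinase *DTYMK* (3.77 ± 0.14), thymidine kinase *TK1* (2.93 ± 0.15) and *TYMS* (2.74), all on the route to dTTP, rose too. *DUT*, which removes dUTP, was the most abundant of the group at 2.00, 3.60 and 5.59 against 1.52, 2.86 and 3.77. It was higher in each cow, but its log2 fold change (0.46 ± 0.09) was under the fold minimum, so it was not called. Neither was *IMPDH2* (0.31).

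Of 17 genes of chromatin assembly and methylation maintenance, 15 were higher (median 2.06). *DNMT1*, the maintenance methyltransferase that UHRF1 recruits, stood at 0.679, 0.688 and 1.07 UMIs per 10,000 against 0.218, 0.148 and 0.214 (log2 fold change 2.11 ± 0.11, edgeR adjusted p = 4e-13). The histone chaperone subunits *CHAF1A* (4.38) and *CHAF1B* (3.45), the chromatin remodeller *HELLS* (3.50), the histone chaperone *NASP* (1.66) and *SLBP* (1.87), which binds the stem-loop of replication-dependent histone mRNA, rose. The FACT subunits were split, with *SUPT16H* at 0.61 and called, but not without cow 3 (0.39), and *SSRP1* at 0.42 and not called. Of 19 tested checkpoint and repair genes, 18 were higher (median 2.53), among them the checkpoint kinase *CHEK1* (3.16 ± 0.16), the exonuclease *EXO1* (5.49) and the mismatch repair gene *MSH6* (1.26).

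Of 20 tested regulators of G1 and S, 15 were higher, 3 lower and 2 not called, where 12.1% of all genes were higher and 10.4% lower. *E2F1*, an activator of the S-phase genes, stood at 0.0896, 0.115 and 0.1003 UMIs per 10,000 against 0.00319, 0.00180 and 0.00253 (log2 fold change 5.48 ± 0.27, edgeR adjusted p = 1.2e-13), and the E-type cyclins *CCNE1* (2.05) and *CCNE2* (3.102), their kinase *CDK2* (1.92) and its activating phosphatase *CDC25A* (2.80) rose. The D-type cyclins, which drive the G1 kinases, went in different directions. *CCND1* was higher at 0.832, 0.656 and 0.944 against 0.391, 0.301 and 0.574 (0.91 ± 0.10, edgeR adjusted p = 2.3e-07), whereas *CCND2* was lower at 0.371, 0.432 and 0.459 against 0.666, 0.573 and 0.961 (-0.79 ± 0.12, edgeR adjusted p = 9.1e-06) and *CCND3* was lower as well (-0.80 ± 0.10, edgeR adjusted p = 1.7e-06). *MYC* had -0.54 ± 0.11 and was not called against depth-matched cells (-0.41) or without cow 2. *CCND3* (-0.46) was not called against depth-matched cells either, while *CCND1* (0.74) and *CCND2* (-0.64) were. Neither *CCND1* nor *CCND2* was called without the cow in the model, and *CCNE1* was not called without cow 3.

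Of 8 tested cell cycle inhibitors, 6 were lower and 0 higher, where 10.4% of all genes were lower. *CDKN1C*, which encodes the kinase inhibitor p57, stood at 0.0768, 0.0192 and 0.0629 UMIs per 10,000 in the MCM-rich cells and at 0.428, 0.370 and 0.514 in the MCM-negative cells, with no overlap (log2 fold change -3.10 ± 0.23, edgeR adjusted p = 1.7e-10). Against depth-matched cells the *CDKN1C* difference shrank to -1.96 and stayed called. The antiproliferative gene *BTG1* was at 1.34, 2.19 and 1.57 against 3.44, 4.27 and 3.09 (-1.04 ± 0.08, edgeR adjusted p = 8.2e-10), and *CDKN1B* (-0.76), *CDKN1A* (-0.70), *BTG2* (-0.92) and *CDKN2D* (-1.11) were lower. *BTG2* was not called against depth-matched cells (-0.61) and *CDKN2D* not without cow 3 (-0.99). Without the cow in the model 2 of the 8 were lower. *CDKN2C* had 0.44 and was not called.

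**Figure D3:**
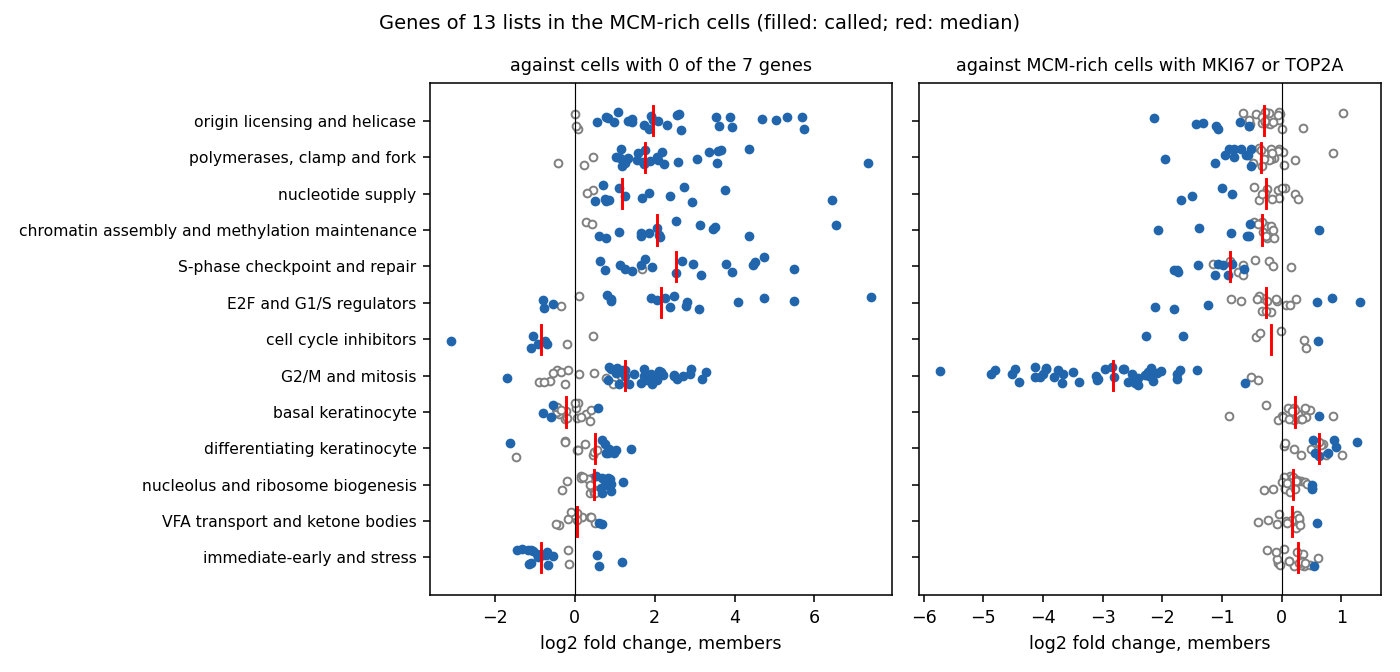
Log2 fold changes of the tested genes of 13 lists in the MCM-rich cells, against the MCM-negative cells (left) and against MCM-rich cells with MKI67 or TOP2A UMIs (right), with filled points for called genes and a red line at the median of each list. The S-phase checkpoint list had a median of 2.53 on the left and -0.86 on the right, and the G2/M list 1.26 and -2.83.

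Genes of G2 and mitosis were partly present although *MKI67* and *TOP2A* were at 0 in both sets by the rule. Of 46 such genes, 32 were higher, 1 lower and 13 not called (median 1.26), where 12.1% of all genes were higher and 10.4% lower. The higher count was 20 without cow 3, 24 against depth-matched cells and 22 without the cow in the model. *CCNA2* (2.71) and *CDK1* (2.10), the cyclin and kinase active from S phase on, *HMGB2* (1.49 ± 0.21), which bends DNA, and *GTSE1* (3.29) were higher. The kinetochore gene *SPC25* (3.19) and *CDCA8* (2.90), a subunit of the chromosomal passenger complex, were higher too, as were *BUB1B* (2.57) and *AURKB* (1.74) of the mitotic checkpoint and the cytokinesis gene *ANLN* (1.94). *CCNB1* (-0.55), *CDC20* (-0.44), *PLK1* (-0.17) and *AURKA* (-0.25) were among the 13 not called. *CENPF*, a kinetochore gene, was the 1 called lower, at 0.0640, 0.0512 and 0.103 UMIs per 10,000 against 0.157, 0.117 and 0.491 (log2 fold change -1.71 ± 0.46, edgeR adjusted p = 0.0052), though not without the cow in the model. *CDK1* was not called without cow 3 (1.19). The shares of cells with a *CDK1* UMI were small. They were 2.38%, 4.55% and 7.20% in the MCM-rich and 1.11%, 0.929% and 0.760% in the MCM-negative cells, and after thinning to 8000 UMIs 0%, 0.649% and 3.22% against 0.971%, 0.681% and 0.744%.

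The early response genes that cell dissociation is known to induce were lower. Of 20 immediate-early and stress genes, 15 were lower and 3 higher (median -0.84), where 10.4% of all genes were lower and 12.1% higher. *FOS* was at 1.52, 2.80 and 0.613 UMIs per 10,000 against 6.80, 5.41 and 1.85 (log2 fold change -1.45 ± 0.14, edgeR adjusted p = 1.9e-08), and *JUN* at 7.63, 23.9 and 5.68 against 23.8, 41.8 and 11.3 (-1.09 ± 0.11, edgeR adjusted p = 4.1e-08). Each was lower in every cow, although the ranges over cows overlapped. The 3 higher genes all encode chaperones, although the chaperone genes *HSPA1A* (-0.18) and *DNAJB1* (-0.16) were not called. *HSP90AA1* (0.55) and *HSPH1* (0.61) were higher, and *HSPA8* was at 7.39, 9.82 and 9.69 against 5.05, 3.80 and 3.28 (1.18 ± 0.12, edgeR adjusted p = 4.8e-08). Against depth-matched cells 13 of the 20 were lower and 1, *HSPA8*, was higher, and without the cow in the model none of the 20 was called lower and 1 higher. Without cow 2 or without cow 3, 1 of the 20 was higher. The cows differed widely, with a summed level of the list of 43.3 to 107 per 10,000 in the MCM-rich cells. Among 22 nucleolar genes, 10 were higher (5 without the cow in the model) and 0 lower (median 0.49), led by *NOLC1* (1.21), *MYBBP1A* (0.90) and the box C/D ribonucleoprotein gene *NOP56* (0.89), whereas the abundant *NCL* (0.46) and *NPM1* (-0.31) were not called.

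The calls on differentiation genes changed with the depth of the comparison cells. Against all MCM-negative cells, 8 of 18 tested genes were higher and 1 lower (median 0.51), where 12.1% of all genes were higher and 10.4% lower. The higher count was 1 without the cow in the model, and 12 of 14 (median 0.88) among cells without *DLK2* and *GJA1* UMIs. Over all genes, 491 and 1238 were higher in these 2 settings. With all cells, examples of higher genes were *S100A12*, a calcium-binding alarmin, at 46.2, 61.8 and 38.0 UMIs per 10,000 against 27.4, 20.5 and 24.0 (log2 fold change 1.02 ± 0.10, edgeR adjusted p = 5.3e-08) and the suprabasal keratin *KRT6A* at 4.05, 4.65 and 6.67 against 2.35, 2.05 and 4.55 (0.83 ± 0.12, edgeR adjusted p = 7.9e-06). Against depth-matched cells 0 of the 16 tested were higher and 5 lower (median -0.21), where 775 of all genes were higher and 507 lower. *S100A12* then had 0.25, *FABP5* 0.04, *KRT6A* -0.15 and *S100A8* -0.19. Within the MCM-negative cells the level of *KRT6A* differed with depth. It stood at 1.93, 0.702 and 2.28 per 10,000 in cells below 10000 UMIs of cows 1, 2 and 3, at 1.99, 2.06 and 6.49 between 10000 and 20000, and at 3.91, 4.96 and 30.4 above 20000. The last range held 181, 288 and 38 cells of cows 1, 2 and 3, so the value of 30.4 rests on few cells. *DLK2*, a membrane protein of the Notch ligand family that marks a group of rumen cells, was lower against the MCM-negative cells, at 0.192, 0.314 and 0.174 against 0.817, 0.937 and 0.508 (-1.62 ± 0.14, edgeR adjusted p = 2.4e-09) and with -0.92 against depth-matched cells. For comparison, *PCNA* had a log2 fold change of 3.36, *UHRF1* of 7.22 and *RRM2* of 6.05 against depth-matched cells. Of 14 tested genes of volatile fatty acid transport and ketone body formation, 2 (14.3%) were higher, *ACAT2* and *FABP4*, close to the 12.1% of all genes, and 0 were higher and 2 lower against depth-matched cells. The transporter gene *SLC16A1*, at 6.45, 4.04 and 4.95 against 4.86, 2.73 and 4.18 (0.41), *BDH1* (0.49) and *ACAT1* (0.05) were not called.

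**Figure D4:**
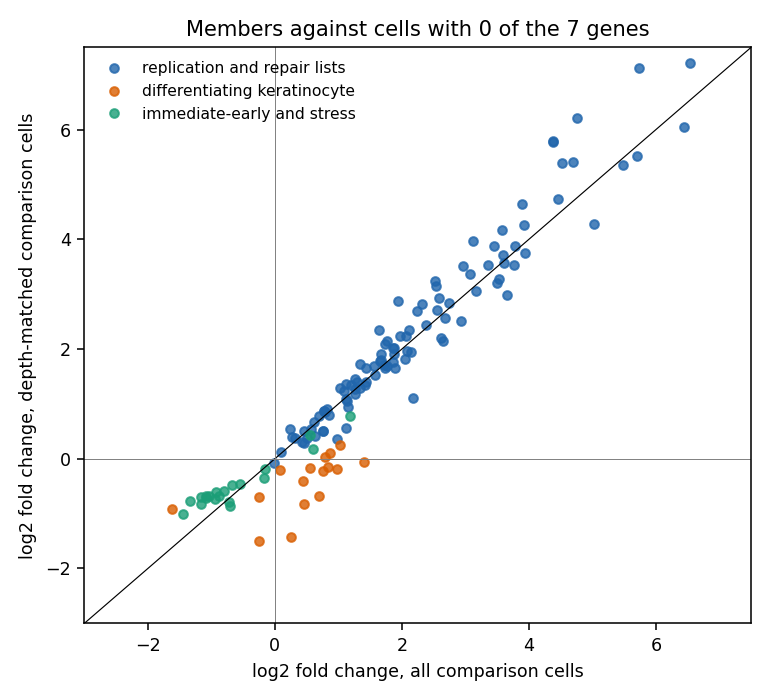
Log2 fold change of the MCM-rich cells against all MCM-negative cells (horizontal axis) and against depth-matched ones (vertical axis), 1 point per gene, with a line where both are equal. Of 103 replication and repair genes 102 were above 0 on the horizontal and 102 on the vertical axis. Of 16 differentiation genes, 13 were above 0 on the horizontal and 3 on the vertical axis.

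Outside the lists, the 10 largest increases among genes with a symbol and at least 0.2 UMIs per 10,000 were in *TCF19* (4.77), the condensin gene *SMC2* (4.02), the histone H3 chaperone gene *DNAJC9* (3.73), *PCLAF*, which encodes a PCNA partner (3.59), *PKMYT1*, an inhibitory kinase of CDK1 (3.48), *VRK1* (3.19), *RMI2* (3.09), the lamin gene *LMNB1* (2.82), *ZNF367* (2.55) and the microtubule regulator *STMN1* (2.53). *SMC2* was at 0.627, 0.823 and 1.55 UMIs per 10,000 against 0.0693, 0.0562 and 0.0680. The 10 largest decreases were in *GPNMB* (-3.25), the histone gene *HIST1H2AC* (-2.60), *THBS1* (-1.87), the Notch ligand *DLL1* (-1.85), *PDK4*, which holds back pyruvate oxidation (-1.80), *DHRS3* (-1.72), *SPRY1* (-1.72), the transcriptional inhibitor *ID2* (-1.70), *AOX1* (-1.70) and *DEPP1* (-1.64). *GPNMB* differed widely between cows, from 1.39 in cow 1 to 0.0235 in cow 3 in the MCM-negative cells. *PDK4* was at 0.743, 0.823 and 0.167 against 1.71, 3.65 and 0.511. Depth matching moved *PDK4* to -0.93, *DLL1* to -1.05 and *AOX1* to -0.48, the last of which was not called.

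Cells that met the rule varied among themselves in the same genes. As the MCM count rose from 6 or 7 to between 16 and 33, *PCNA* went from 1.08 to 3.09 UMIs per 10,000 in cow 1, from 0.926 to 3.84 in cow 2 and from 1.90 to 5.52 in cow 3. *RRM2* went from 0.135 to 0.805, from 0.0127 to 1.43 and from 0.313 to 2.32. *DLK2* was lower in the last bin of each cow than in the first, in cow 2 by going from 0.533 to 0.0614. In cow 1 *DLK2* did not fall steadily, at 0.135, 0.0972, 0.470 and 0.0619 over bins of 9 to 13 cells. *KRT5* moved less, from 40.03 to 55.6, from 53.1 to 50.9 and from 78.5 to 77.1. The bins share the rule's own measure and the deeper bins held deeper cells (in cow 3 a median of 12735 UMIs in the first and 16469 in the last), so these values are a description. The last bin of cow 1 had 9 cells, of cow 2 28 and of cow 3 97.

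**Figure D5:**
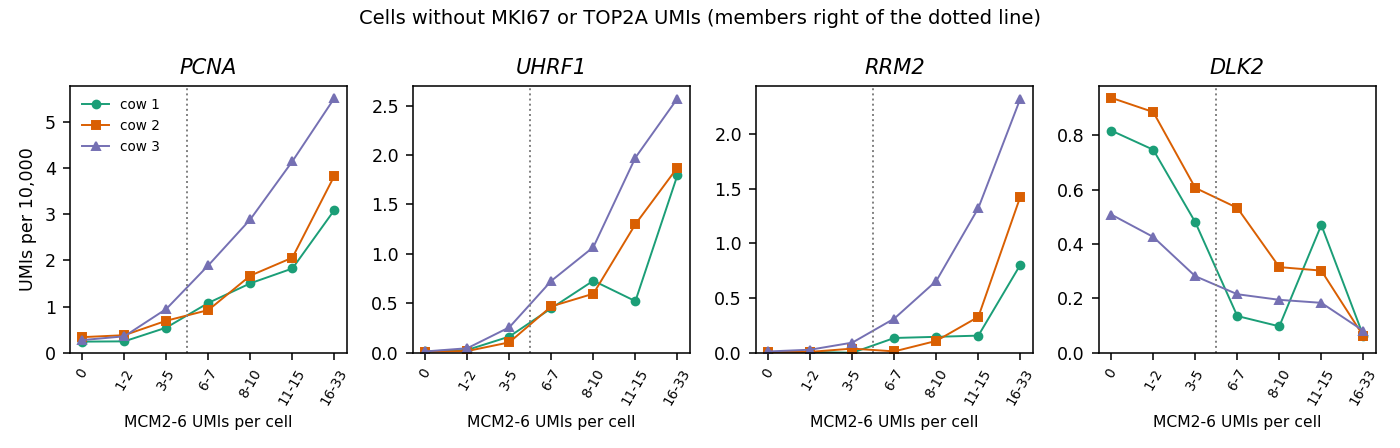
UMIs per 10,000 of 4 genes in cells without MKI67 or TOP2A UMIs, by their count of MCM2 to MCM6 UMIs, with 1 line per cow; cells right of the dotted line met the rule. *PCNA*, *UHRF1* and *RRM2* were highest in the last bin of each cow, where *PCNA* reached 3.09, 3.84 and 5.52.

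The second comparison required 6 or more MCM UMIs in both sets and asked what differed with *MKI67* and *TOP2A*. There were 710 cells with 6 or more MCM UMIs and at least 1 UMI of *MKI67* or *TOP2A*, 39 in cow 1, 60 in cow 2 and 611 in cow 3. Their median was 16010.5 UMIs per cell. The MCM counts of the 2 sets were not matched. The median was 12 MCM UMIs in these cells and 10 in the MCM-rich cells without *MKI67* or *TOP2A*. The summed MCM level was 6.06, 6.18 and 8.23 per 10,000 in cows 1, 2 and 3 against 6.06, 5.41 and 7.83. The part of this gap in the differences below was not tested. Of the 10820 genes, 145 (1.34%) were higher and 372 (3.44%) lower in the MCM-rich cells without the 2 genes. Without the cow in the model 6 were higher and 136 lower, and leaving out any 1 cow gave 79 to 84 higher.

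Of 29 licensing genes, 7 were lower, 0 higher and 22 not called (median log2 fold change -0.30), where 3.44% of all genes were lower. The 7 were *TICRR* (-2.13), *RECQL4* (-1.43), *CLSPN* (-1.32), *DBF4* (-1.10), *CDC45* (-1.06), *CDC6* (-0.70) and *GINS2* (-0.54), most of which act in firing the loaded helicase. Those not called included *MCM7* at 1.61, 1.34 and 1.75 UMIs per 10,000 against 1.85, 1.74 and 1.99 (log2 fold change -0.15 ± 0.10), *GMNN* at -0.28 and *ORC1* at -0.24. Of 28 fork genes, 11 were lower in the MCM-rich cells without *MKI67* or *TOP2A*, as were 4 of 16 nucleotide genes, 6 of 17 chromatin genes and 10 of 19 checkpoint and repair genes. The 1 higher gene of these lists was *CDCA7* (0.63), in the chromatin list. Calls of higher genes were often lost in this comparison. Of all 145 higher genes, 70 kept their call without cow 1, 62 without cow 2, 39 without cow 3 and 18 with at least 10 MCM UMIs. With at least 10 MCM UMIs the lower counts were 3 licensing, 4 fork, 4 nucleotide, 2 chromatin and 4 checkpoint genes. *PCNA* was lower by -0.79 ± 0.13 on the log2 scale (edgeR adjusted p = 0.0003) and *UHRF1* by -0.56. *RRM2* showed the wider gap, at 0.282, 0.413 and 1.09 against 1.85, 2.01 and 2.19 (-1.50 ± 0.21, edgeR adjusted p = 1.7e-05). *DUT* (-1.01), the histone chaperone *ASF1B* (-2.08), the methyltransferase *EZH2* (-1.39), *FANCI* (-1.76) and the late regulators *E2F8* (-2.13) and *MYBL2* (-1.80) were lower. *TK1* (-0.28), *DNMT1* (-0.33) and *CHEK1* (-0.15) were not called. Without the cow in the model 3 licensing, 1 nucleotide, 1 chromatin and 3 checkpoint genes and none of the fork genes were lower, and *RRM2*, *DUT*, *ASF1B* and *EZH2* were not called either.

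*CCND2* was the largest increase among the G1 regulators. It stood at 0.371, 0.432 and 0.459 UMIs per 10,000 against 0.0891, 0.142 and 0.227, with no overlap (log2 fold change 1.32 ± 0.16, edgeR adjusted p = 4e-06). *CCND1* was higher too, at 0.832, 0.656 and 0.944 against 0.560, 0.277 and 0.621 (0.84 ± 0.13, edgeR adjusted p = 6.9e-05), but was not called without the cow in the model. *MYC* (0.60) was called, but not without cow 1 or without cow 3. Of 8 tested inhibitors, 2 were lower in the cells without *MKI67* or *TOP2A*, *CDKN2C* (-1.65) and *CDKN2D* (-2.27), and 1 was higher, *CDKN1A* (0.60 ± 0.17, edgeR adjusted p = 0.037). Of all genes, 3.44% were lower and 1.34% higher. *CDKN1A* was at 0.243, 1.22 and 0.183 against 0.267, 0.749 and 0.138, and was not called without the cow in the model, without cow 2 or without cow 3. By contrast, *CDKN1C* was scarce in both sets (0.0768, 0.0192 and 0.0629 against 0.0636, 0.00749 and 0.0636) and was not called.

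The G2 and mitosis genes separated the sets most. Of 46, 44 were lower and 0 higher (median -2.83), where 3.44% of all genes were lower. Since the rule chose the sets on *MKI67* and *TOP2A*, which are expressed with these genes, that direction was close to given. *CENPF* stood at 0.0640, 0.0512 and 0.103 against 3.53, 1.45 and 2.03 (-4.81 ± 0.44, edgeR adjusted p = 4e-08), and *UBE2C*, whose product tags cyclins for destruction, had -4.40. The kinesin gene *KIF20A* had 3 UMIs in the MCM-rich cells without *MKI67* or *TOP2A* and 167 in those with them. *HMGB2* was at 0.461, 0.580 and 0.982 against 3.73, 3.38 and 3.97. The 5 largest decreases outside the lists were likewise in *ASPM* (-4.98), *IQGAP3* (-4.48), *MXD3* (-4.39), *KIF4A* (-3.24) and *SPAG5* (-3.21), of which *ASPM*, *KIF4A* and *SPAG5* act on the spindle or mitotic chromosomes. The 5 largest increases were in the gluconeogenic gene *FBP2* (1.26), *TCIM* (1.14), the carbonyl reductase gene *CBR3* (1.13), *SH3D21* (0.98) and *FBLIM1* (0.91). *FBP2* and *FBLIM1* were not called without cow 3, and *TCIM* not without cow 2.

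Some differentiation genes were higher in the MCM-rich cells without *MKI67* or *TOP2A*. Of 18 tested, 7 were higher and 0 lower (median 0.63), where 1.34% of all genes were higher. The count was 2 without cow 1, 0 without the cow in the model, 1 with at least 10 MCM UMIs and 3 with the minimum relative to depth. *DLK2* was among the 7 (0.77 ± 0.21, edgeR adjusted p = 0.023). The connexin gene *GJA1* was at 1.10, 0.346 and 0.220 against 0.471, 0.270 and 0.0761 (1.27 ± 0.28, edgeR adjusted p = 0.0045) and was not called without cow 1, and *S100A12* (0.52) was called with all cows but not without cow 1 or without cow 2. *GJA1* UMIs were found in 40.5%, 15.6% and 9.61% of the MCM-rich cells without *MKI67* or *TOP2A*, in 28.2%, 20.0% and 4.75% of those with them, and in 19.7%, 7.28% and 6.18% of the MCM-negative cells. After thinning to 8000 UMIs the *GJA1* shares were 32.5%, 7.14% and 6.08%, 18.4%, 11.9% and 3.50%, and 22.5%, 7.18% and 7.55% in that order. Of 20 basal genes 1, the laminin gene *LAMB3* (0.62), was higher, and 0 were lower. The 1 endothelial gene tested, *VWF*, was higher (1.46 ± 0.43, edgeR adjusted p = 0.039), with 34 UMIs against 13 in all, but was not called when any 1 cow was left out. Its part in the other results was not tested.

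The third comparison set the MCM-rich cells beside the 2483 cells with *MKI67* or *TOP2A* UMIs and 0 to 5 MCM UMIs (444, 462 and 1577 per cow). Here 734 genes (6.78%) were higher and 625 (5.78%) lower in the MCM-rich cells, against 382 and 389 without cow 3. Without the cow in the model there were 143 and 174. Licensing genes were higher in 21 of 29 cases and lower in 2, and fork genes higher in 21 of 28. Nucleotide genes were higher in 11 of 16, chromatin genes in 10 of 17 and checkpoint and repair genes in 8 of 19. Of 46 G2 and mitosis genes, 45 were lower. The rule chose these sets on the MCM genes and on *MKI67* and *TOP2A*. The direction of genes expressed with either was therefore close to given. Without cow 3 there were 14 higher licensing and 3 higher checkpoint genes, and against depth-matched cells 3 higher checkpoint genes. Without the cow in the model the higher counts were 11 licensing, 14 fork, 4 nucleotide, 9 chromatin and 2 checkpoint genes. *CDC6* was at 0.0512, 0.0929 and 0.184 UMIs per 10,000 against 0.00469, 0.00668 and 0.0102 (log2 fold change 4.16 ± 0.25, edgeR adjusted p = 1.2e-11), and *CHAF1B* (3.61) and *CCNE2* (3.17) were also much higher. *CCNB1* stood at 0, 0.0160 and 0.00846 against 0.824, 0.554 and 1.21 (-6.53 ± 0.36, edgeR adjusted p = 2.2e-12). *DUT* (-0.38) and *RNASEH2A* (-0.25) were not called and lay below 0. *CCND1* had the largest difference among the D-type cyclins (1.47 ± 0.11, edgeR adjusted p = 4.8e-10), and *CDKN1B* (-0.80 ± 0.11) was lower. Outside the lists the largest increases were in *DNAJC9* (2.58), *FAM111B* (2.51), *ACACB*, an acetyl-CoA carboxylase gene (2.27), *RMI2* (2.16) and *PKMYT1* (2.08), and the largest decreases in *PIMREG*, with 1 UMI in the MCM-rich and 939 in the other cells, *ASPM* (-6.80), *CDKN3* (-5.79), *TNFAIP8L1* (-5.17) and *DEPDC1* (-4.79).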

How the data were processed

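The authors processed the reads of the 3 libraries with Cell Ranger 3.1.0 on the bovine genome with Ensembl annotation, removed cells by limits on genes, UMIs and mitochondrial share, looked for doublets with DoubletFinder, left out cells that were not epithelial, and deposited a table of raw UMI counts for each gene in each cell. They also deposited natural log values of the same cells, which equalled ln(1 + UMIs per 10,000) within 1e-06 at every value and gave the gene names of 19533 rows. No doublet caller was run here. The annotation at hand is of another assembly, so no position is given.

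The depth was 38912809, 94856658 and 104189434 UMIs in cows 1, 2 and 3. The 20728 cells were divided into 5 sets by the 7 genes of the rule, and counts were summed per cow and set, giving 15 sums. Levels are UMIs per 10,000 of a sum. edgeR 4.0.16 in R 4.3.3 was run with TMM normalization, filterByExpr, the cow as a term and the quasi-likelihood test, two-sided, with Benjamini-Hochberg adjustment over 10820 genes. The SE printed with a log2 fold change is its absolute value divided by the square root of the quasi-likelihood F statistic. The 7 rule genes counted towards library sizes and were not tested. A gene was called at an adjusted p under 0.05 and an absolute log2 fold change above 0.5. Below this fold minimum a gene was not called at any p-value, so a gene not called can still differ. The common biological coefficient of variation was 0.063. With 3 cows an exact paired permutation test cannot go below p = 0.25, so levels, shares and lists carry no test. The cow term took level differences between cows out of the spread. The edgeR p-values therefore rest on how much the differences between sets varied over 3 cows with 1 library each, estimated over all 15 sums. On counts simulated for 10792 genes, 59.7% of 67 genes changed by 0.75 on the log2 scale were recovered. The share was 70.8% of 65 genes changed by 1 and 97.1% of 68 changed by 2, with 4 false calls. The simulation gave every gene the same fixed spread, not the estimated one, and changed genes in the MCM-rich sums only. These shares therefore describe the procedure and not its power in these data.

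The members and the gene lists were chosen with earlier results of these data known. Genes were named from those picked by a rule, of which not all are printed, namely the 6 with the most UMIs and the 3 called genes with the largest change in each list and comparison, and outside the lists the 10 largest increases and decreases (5 in the later comparisons) that went the same way in 3 cows, with a symbol and at least 0.2 UMIs per 10,000. Other list members are named to show the range of a list and were chosen after their values were seen. Alternatives were DESeq2 1.42.0, RLE size factors, no filter, no cow term, only the sets compared, depth-matched cells, cells of 10000 to 20000 UMIs, cells without *DLK2* and *GJA1* UMIs, cells of at most 3500 genes, other MCM minimums, other fold minimums and each cow left out. The counts cover all tested members of a list, many of which are not reported here by name. A planned description of promoter motifs was not run, because no promoter sequence was at hand. Python 3.11.15 with numpy 2.4.6, scipy 1.17.1 and pandas 2.3.3 was used for the sums.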

Additional observations from a re-analysis of the deposited data

How the results depend on the processing

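Against the MCM-negative cells, 1308 genes were higher and 1128 lower. These counts were 491 and 155 without the cow in the model, 775 and 507 with depth-matched cells, 2109 and 1828 without a fold minimum and 521 and 338 with a log2 fold change above 1, and the lower count was 550 in cells of 10000 to 20000 UMIs. Leaving out a cow gave 971 to 1192 higher and 834 to 1218 lower. Against MCM-rich cells with *MKI67* or *TOP2A*, 145 were higher and 372 lower. The counts were 6 and 136 without the cow in the model, 20 and 162 with at least 10 MCM UMIs, 35 and 240 with an MCM minimum relative to depth and 36 and 220 with a log2 fold change above 1, and the higher count was 78 in cells of 10000 to 20000 UMIs, 270 with at least 4 MCM UMIs and 324 without a fold minimum. Leaving out a cow gave 79 to 84 higher and 268 to 315 lower. Against cells with *MKI67* or *TOP2A* and fewer MCM UMIs, 734 were higher and 625 lower, with 143 and 174 without the cow in the model, 1236 and 1026 without a fold minimum and 260 and 283 with a log2 fold change above 1. Leaving out a cow gave 382 to 625 higher and 389 to 586 lower, the lowest without cow 3. Why the counts moved was not tested, except that a fold minimum selects by size and that fewer cells enter some settings.

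Against depth-matched MCM-negative cells, 687 of the 1308 higher and 380 of the 1128 lower genes kept their call, and 55 had the opposite sign. Of the genes picked by the naming rule, 5 changed sign there, namely *KRT6A* (-0.15), *S100A8* (-0.19), *GSTA1* (-0.82), *TGM3* (-0.054) and *FABP4* (-0.58), and *FABP4* also in cells of 10000 to 20000 UMIs (-0.016). Signs of changes that no setting called were not judged. DESeq2, RLE size factors, no filter, only the sets compared and at most 3500 genes kept each of the 6 counts within 1.5 times. Without a filter on low counts the median log2 fold change of all genes against the MCM-negative cells was -0.23 in place of -0.03. The depth of each cell set limits genes near 0, as for *POLE*.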
